A study of Arabidopsis thaliana with 6 samples.

Results

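The 4 poly(A) polymerase genes PAPS1 (AT1G17980), PAPS2 (AT2G25850), PAPS3 (AT3G06560) and PAPS4 (AT4G32850) were described in complexes of Arabidopsis thaliana style tissue and the pollen tubes that had grown into it. They were taken by locus identifier from the 33323 genes counted, and all 4 were present. By RNA sequencing, 3 paps1-1 libraries were compared with 3 wild-type (WT) libraries. The paps1-1 libraries carried the mutant allele paps1-1 of PAPS1 in Col-0, and the WT libraries were from Col-0 plants. All 6 libraries came from the same kind of material, excised style portions with tubes, and the labels do not say whether style, pollen or both carried paps1-1, nor the age of the plants or the growth temperature. PAPS1 is therefore both a member of the family and the gene that carries the mutation.

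A poly(A) polymerase adds adenosines to the cut 3' end of a new transcript. In the nucleus it works with the factors that recognise and cleave the 3' end, and the tail it makes affects export, stability and translation of the mRNA. The reference annotation places the products of PAPS1, PAPS2 and PAPS4 in the nucleus and that of PAPS3 in the cytoplasm. PAPS1 is known to limit the recruitment of founder cells to organ primordia and to hold back an immune response, and paps1-1 is known as a missense allele of reduced function.

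The 4 genes share the catalytic core of the enzyme. The stretch of coding sequence around its paired aspartates, the D-x-D of nucleotidyl transferases, is shown because all 4 genes have it. Its base differences also let reads be told apart. The codons of both aspartates are in capitals, and the sequences are read 5' to 3' on the coding strand from the RefSeq models of assembly TAIR10.1.
PAPS1: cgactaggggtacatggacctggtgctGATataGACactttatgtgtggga
PAPS2: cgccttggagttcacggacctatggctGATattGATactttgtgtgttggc
PAPS3: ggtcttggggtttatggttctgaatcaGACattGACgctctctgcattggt
PAPS4: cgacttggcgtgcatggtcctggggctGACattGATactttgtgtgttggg
Each stretch is 51 bases long and encodes residues 95 to 111 of PAPS1, 107 to 123 of PAPS2, 83 to 99 of PAPS3 and 105 to 121 of PAPS4. Against PAPS1 it differed at 13 bases in PAPS2, at 20 in PAPS3 and at 11 in PAPS4.

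PAPS2 and PAPS4 were the closest pair, with 75.8% identical residues over 749 aligned positions. PAPS1 shared 50.1% with PAPS2 and 50.7% with PAPS4. PAPS3 shared between 34.8% and 37.9% with the others, and it was also the shortest product, at 507 residues against 713 for PAPS1, 800 for PAPS2 and 765 for PAPS4. The alignment of PAPS3 ended 172 residues before the end of PAPS1, 246 before that of PAPS2 and 169 before that of PAPS4, so the shorter protein lacked a counterpart of the C-terminal stretch of the nuclear ones.

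Likeness between paralogs matters here because reads that fit several places were not counted in genes. The longest run of identical bases in any pair of coding sequences was that of PAPS2 and PAPS4, shown because it sets the length above which a read within the coding sequence can be placed in only 1 of the family.
PAPS2 and PAPS4: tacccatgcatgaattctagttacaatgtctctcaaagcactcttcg
It was 47 bases long, and the longest run in any other pair was 18. None of the 50-base windows of the PAPS2, PAPS3 and PAPS4 transcripts was found at more than 1 place of the 5 nuclear chromosomes. In PAPS1, 109 of 2660 windows were, and they lay between bases 1 and 304 of its transcript, whose coding part starts at base 291. A window across an exon junction is not continuous at its own gene, so this search could not show a single copy of it elsewhere. The read length is not given in the sources used here. AT1G17970, which overlaps the PAPS1 gene on the opposite strand in the annotation, had 1 to 12 reads per library, and OVA4, which overlaps PAPS2 in the same manner, had 7 to 54. Counting did not use strand, but the reads counted for each PAPS gene on the 2 strands separately exceeded its unstranded count by at most 1 in any library.

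Reads counted in genes ranged from 4541233 in paps1-1 replicate 2 to 21031017 in WT replicate 1, and those of the 4 PAPS genes together from 1840 to 12129 in paps1-1 replicate 2 and WT replicate 3. Reads that fitted several places made up 74.6% of the reads of paps1-1 replicate 2, where an 18S ribosomal RNA gene took 10.5% of gene reads. In the other libraries these values were at most 28.0% and 0.732%. All 30 pollen tube markers were expressed, with a summed level of 73780 to 84518 CPM (reads scaled to a common total of gene reads, after TMM factors) in paps1-1 and 61676 to 139749 CPM in WT. The 16 style and carpel markers summed to 57.2 to 61.5 CPM in paps1-1 and 38.2 to 62.2 CPM in WT, and 3 of them, HEC1, HEC2 and CRC, had no read in any library. Among 6 green tissue markers the sum was 76.6 to 354 CPM in paps1-1, with paps1-1 replicate 3 highest, and 91.1 to 120 CPM in WT. The 7 sperm cell markers summed to 129 to 209 CPM in paps1-1 and 66.0 to 121 CPM in WT, and edgeR called 1 of the 6 tested, TET11, higher in paps1-1. The log2 fold change was above 0 for all 6 (median 0.72), and for 4 of them the unadjusted p was under 0.05. Of the 10 tested style and carpel markers edgeR called 0, with 1 at an unadjusted p under 0.05, and of the 6 green tissue markers it called 0, with 0 at that unadjusted p. Over all 18317 tested genes edgeR called 2.34%, and 10.3% had an unadjusted p under 0.05.

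PAPS4 was the most abundant of the 4 transcripts in every library. Per kilobase of transcript it stood at 90.5 ± 32.4 CPM in paps1-1 and 137 ± 68.2 CPM in WT (SD, n = 3 each). PAPS1 followed at 30.5 ± 7.52 CPM per kilobase in paps1-1 and 42.8 ± 8.71 in WT. PAPS3, the cytoplasmic form, stood at 21.3 ± 3.84 in paps1-1 and 29.5 ± 6.55 in WT, and PAPS2 at 18.7 ± 5.24 in paps1-1 and 23.4 ± 12.3 in WT. On this scale PAPS4 lay above 96.2% of the 18297 tested genes with a length, PAPS1 above 89.2%, PAPS3 above 85.2% and PAPS2 above 82.7%.

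**Figure D1:**
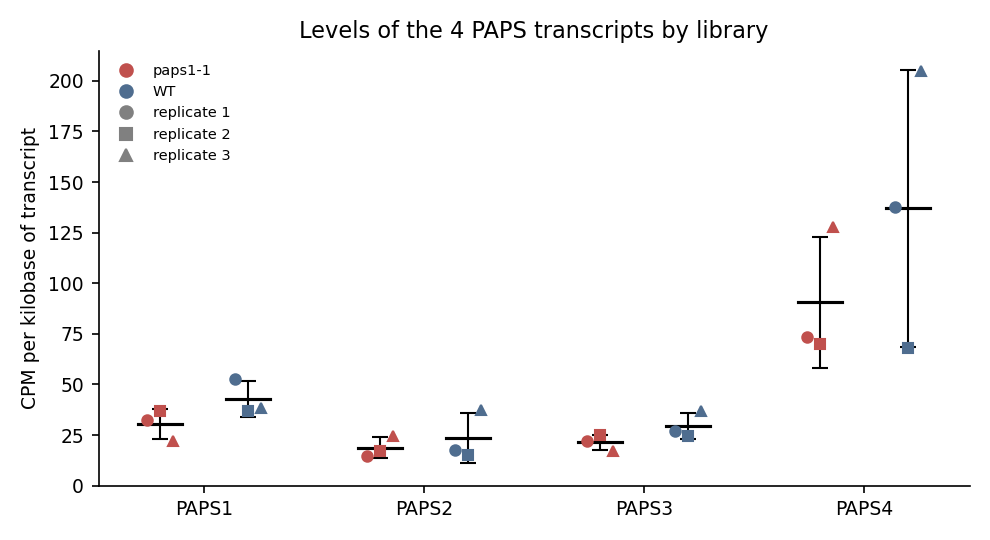
Level of each PAPS transcript in CPM per kilobase of transcript (vertical axis), by gene, with paps1-1 left of WT; points are libraries, with the symbol giving the replicate number, the horizontal bar is the mean and the whisker 1 SD (n = 3). PAPS4 stands above the other 3 genes in each library, and its WT values spread most widely, between 68.2 and 205 CPM per kilobase.

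The place of PAPS4 at the top held in 6 of 6 libraries against each other member. PAPS1 was above PAPS3 in 6 of 6 libraries, although the ratio was only 1.04 in WT replicate 3. PAPS1 was above PAPS2 in 5 of 6 libraries, and PAPS2 above PAPS3 in 2 of 6, so those neighbours in the order were not separated beyond their spread. With coding length in place of transcript length, PAPS1 was above PAPS2 in 4 of 6 libraries. With all annotated exons merged, PAPS2 was above PAPS3 in 1 of 6, and PAPS4 stayed above each other member in 6 of 6 under all 3 measures of length. Across libraries the spread of PAPS4 was also the largest within WT, where its highest value was 3.00 times its lowest, against 1.42 times for PAPS1. Without scaling factors the contrast was small, at 1.85 times for PAPS4 and 1.71 times for PAPS1.

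The question for each member was whether its transcript differed between paps1-1 and WT. All 4 had a negative log2 fold change, paps1-1 over WT, and none passed the test. edgeR's quasi-likelihood test with Benjamini-Hochberg adjustment called 0 of the 4, beside 2.34% of 18317 tested genes. At an unadjusted p under 0.05 the number was also 0, and DESeq2 and limma-voom called 0. Values are in CPM from here on, unless a sentence names another scale.

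PAPS1, the gene with the mutation, was counted at 88.4, 99.4 and 59.9 CPM in paps1-1 replicates 1 to 3, against 143, 101 and 104 CPM in WT replicates 1 to 3. Each paps1-1 library lay below each WT library, which held for 7.82% of all tested genes. Counting either direction, the genotypes did not overlap for 14.7% of tested genes, and among the members this was so for PAPS1 alone. The gap was narrow: the 467 reads of paps1-1 replicate 2 gave an exact Poisson interval of 90.6 to 109 CPM, and the lowest WT value, from 1648 reads, one of 95.8 to 106 CPM (95%, counting error only). When library totals were not corrected by scaling factors the groups overlapped, with paps1-1 reaching 103 CPM and WT starting at 76.9 CPM. The log2 fold change was -0.49, with a 95% interval of -1.08 to 0.10, which in fold terms reaches from 0.473 to 1.07 (edgeR adjusted p = 0.609). A loss to under 0.473 of the WT level thus lay outside the interval, while an equal level lay inside it. That bound is from the fit with all libraries. Leaving out single libraries gave log2 fold changes from -0.67 (SE 0.34, without paps1-1 replicate 2) to -0.31 (SE 0.31, without paps1-1 replicate 3). Counts per gene do not show a base change, so the PAPS1 level neither checks the genotype label nor measures enzyme activity.

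PAPS2 encodes a nuclear polymerase known to overlap in role with PAPS4. It stood at 51.4, 60.2 and 87.2 CPM in paps1-1 replicates 1 to 3, against 63.2, 53.2 and 133 CPM in WT replicates 1 to 3. Replicate 3 was the highest library in both genotypes, and the groups overlapped. The log2 fold change of -0.33 (95% interval -1.04 to 0.39, edgeR adjusted p = 0.861) turned to 0.16 when WT replicate 3 was left out.

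PAPS4 was counted at 197, 187 and 342 CPM in paps1-1 replicates 1 to 3, against 369, 183 and 548 CPM in WT replicates 1 to 3. WT replicate 2 lay with the low paps1-1 libraries and paps1-1 replicate 3 close to WT replicate 1, so that the groups overlapped. The log2 fold change was -0.60 with a 95% interval of -1.41 to 0.21 (edgeR adjusted p = 0.694). It was -0.22 without WT replicate 3, -0.92 without WT replicate 2 and -0.93 without paps1-1 replicate 3, and it stayed uncalled in each case.

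PAPS3, the only member whose product is annotated as cytoplasmic, had 39.2, 44.5 and 30.8 CPM in paps1-1 replicates 1 to 3, against 48.2, 43.9 and 66.0 CPM in WT replicates 1 to 3. The groups touched only through paps1-1 replicate 2 and WT replicate 2. Its log2 fold change was -0.47 (95% interval -1.01 to 0.07, edgeR adjusted p = 0.582). Without both libraries numbered 3 it was -0.15.

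The summed level of the family was 376, 392 and 520 CPM in paps1-1 replicates 1 to 3, against 624, 380 and 851 CPM in WT replicates 1 to 3. The groups overlapped through WT replicate 2. The mean log2 level differed by -0.47 (paps1-1 minus WT, exact permutation test over the 6 libraries, two-sided, p = 0.3, the smallest possible being 0.1). As a part of all gene reads, uncorrected by scaling factors, the 4 genes took 0.0405% to 0.0550% in paps1-1 and 0.0455% to 0.0629% in WT.

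The pollen tube markers moved with some of these levels. WT replicate 3 and WT replicate 1 had the highest summed marker levels, 139749 and 103193 CPM, and WT replicate 2 the lowest, 61676 CPM. That is also the order of PAPS2, PAPS3 and PAPS4 within WT, in CPM after TMM factors. As a percent of gene reads, uncorrected by scaling factors, PAPS4 had 0.0340%, 0.0218% and 0.0405% in WT replicates 1 to 3. On that scale PAPS2 had 0.00582%, 0.00635% and 0.00985%, and PAPS3 0.00444%, 0.00525% and 0.00488%. PAPS4 thus kept the order without scaling factors, and PAPS2 and PAPS3 did not. In paps1-1 the marker sums were 73780, 74755 and 84518 CPM in replicates 1 to 3. PAPS2 followed that order, PAPS4 was highest in replicate 3 but lowest in replicate 2, and PAPS3 was lowest in replicate 3. The mean log2 CPM over the 30 markers, which weights them equally, was 9.14, 9.08 and 9.05 in paps1-1 replicates 1 to 3, against 9.28, 8.92 and 9.98 in WT replicates 1 to 3. On that measure replicate 3 was the lowest paps1-1 library, and neither PAPS2 nor PAPS4 followed it within paps1-1. Of the 30 markers, 26 had a negative log2 fold change, with a median of -0.38 against 0.03 over all tested genes, and edgeR called 0, with 9 at an unadjusted p under 0.05, against 10.3% of all tested genes. Most of those 9 had a negative log2 fold change, and the others had a positive one. PAPS1 did not have the WT order of the markers, being higher in WT replicate 1 than in WT replicate 3. The part of the pollen tube markers in the PAPS levels was not tested, and in these mixed samples fewer cells of one kind and less transcript per cell cannot be told apart.

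**Figure D2:**
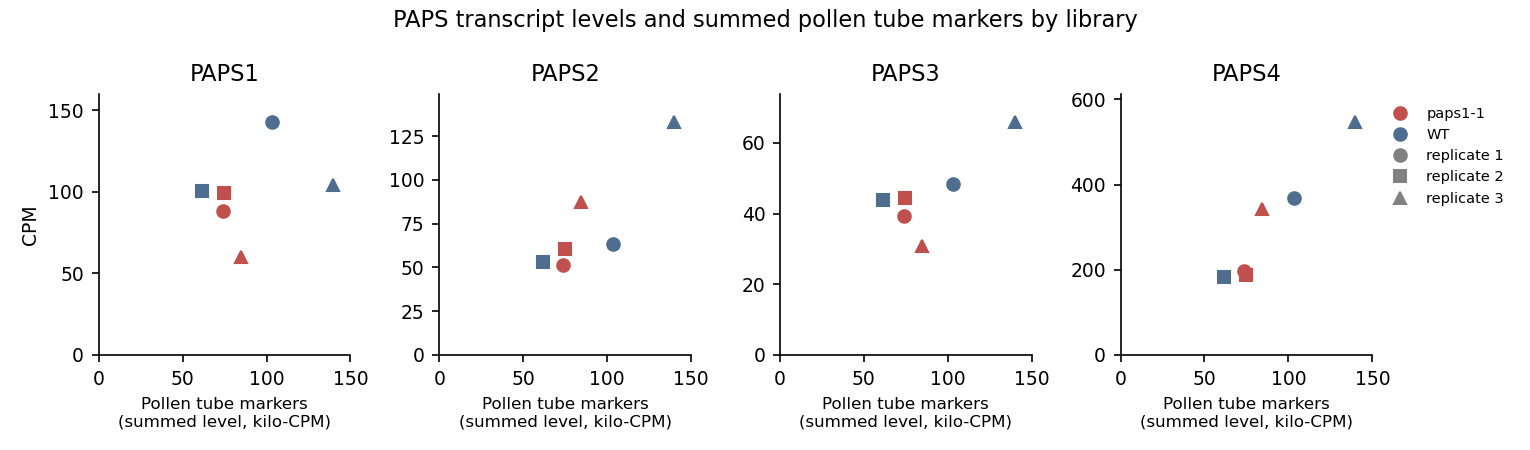
Level of each PAPS transcript in CPM (vertical axis, 1 panel per gene) against the summed level of 30 pollen tube markers in kilo-CPM (horizontal axis); each point is 1 of 6 libraries. PAPS4 runs from 183 CPM at the lowest marker sum, in WT replicate 2, to 548 CPM at the highest, in WT replicate 3, while PAPS1 is highest in WT replicate 1.

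Relative amounts of the paralogs do not depend on how libraries are scaled, so the make-up of the family was compared next. PAPS4 took 55.4% ± 9.32 of the family's reads in paps1-1 and 57.2% ± 8.35 in WT (SD, n = 3). PAPS1 took 20.1% ± 7.52 in paps1-1 and 20.5% ± 7.41 in WT. PAPS2 took 15.3% ± 1.54 in paps1-1 and 13.3% ± 2.83 in WT, and PAPS3 9.24% ± 2.90 in paps1-1 and 9.01% ± 2.20 in WT. The mean difference, paps1-1 minus WT, was -0.40 percentage points for PAPS1 (exact permutation test, two-sided, p = 0.8), 2.01 for PAPS2 (p = 0.5), 0.22 for PAPS3 (p = 1) and -1.83 for PAPS4 (p = 0.9). All 4 adjusted values were 1 (Benjamini-Hochberg over the members), and each member's groups overlapped. Each of these differences was smaller than the SD within either genotype, apart from that of PAPS2, which exceeded the SD within paps1-1 alone.

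Within each genotype, however, the make-up differed widely between libraries. PAPS1 took 23.5%, 25.4% and 11.5% of the family's reads in paps1-1 replicates 1 to 3, against 22.9%, 26.4% and 12.2% in WT replicates 1 to 3. Replicate 3 was the low library in both genotypes. Its exact Clopper-Pearson intervals (95%, counting error only) were 10.9 to 12.1% in paps1-1 and 11.6 to 12.8% in WT, far from those of the other 4 libraries, of which the lowest began at 22.2%. PAPS4 took 52.4%, 47.9% and 65.8% in paps1-1 replicates 1 to 3, against 59.2%, 48.0% and 64.4% in WT replicates 1 to 3. Its share was thus highest in replicate 3 of both genotypes. PAPS2 followed with 13.7%, 15.4% and 16.8% in paps1-1, against 10.1%, 13.98% and 15.7% in WT. PAPS3 had 10.4%, 11.4% and 5.93% in paps1-1, against 7.73%, 11.6% and 7.76% in WT.

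**Figure D3:**
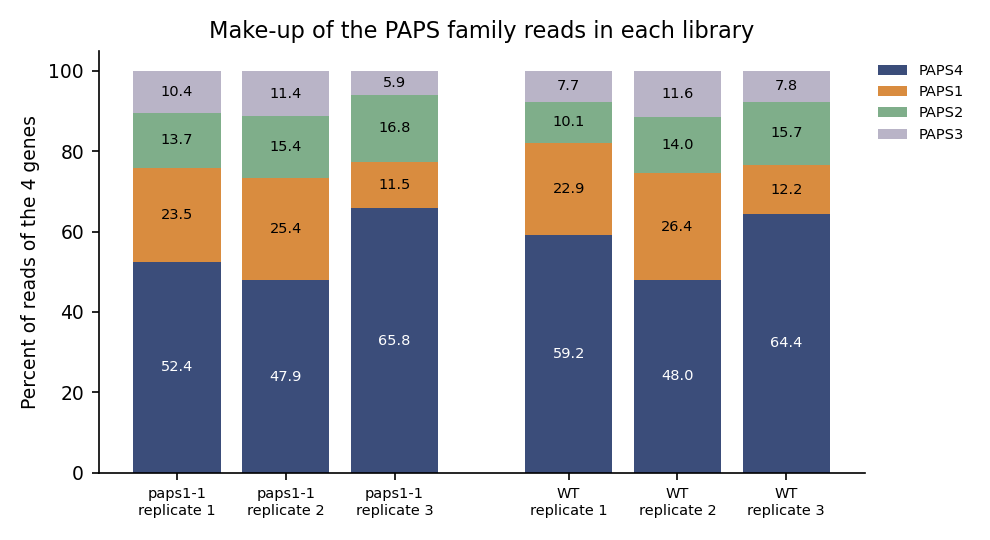
Percent of the reads of the 4 PAPS genes (vertical axis) taken by each gene in each library, with the paps1-1 libraries left of the WT libraries; the numbers in the bars are the shares. PAPS1 takes 11.5% and 12.2% in the libraries numbered 3 and 22.9% to 26.4% in the other 4.

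The ratio of PAPS1 to PAPS2 showed the same split. In reads it was 1.72, 1.65 and 0.687 in paps1-1 replicates 1 to 3, against 2.26, 1.89 and 0.780 in WT replicates 1 to 3. More reads came from PAPS1 than from PAPS2 in 4 libraries, and fewer in the libraries numbered 3. On the log2 scale per kilobase the mean ratio was 0.71 ± 0.75 in paps1-1 and 0.97 ± 0.82 in WT (SD, n = 3), a difference of -0.26 (exact permutation test, two-sided, p = 0.5, adjusted over 6 pairs 1). The groups overlapped, since the libraries numbered 3 were far below the others in both genotypes.

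The other 5 ratios between members were compared by the same exact permutation test, whose smallest possible p here is 0.1. The mean log2 ratio of PAPS2 to PAPS4, the closest paralogs in sequence, was -2.26 ± 0.18 in paps1-1 and -2.53 ± 0.39 in WT, a difference of 0.27 (exact permutation test, two-sided, p = 0.4). By the same exact test, that of PAPS2 to PAPS3 differed by 0.22 (p = 0.5), that of PAPS3 to PAPS4 by 0.06 (p = 1), that of PAPS1 to PAPS3 by -0.04 (p = 0.8) and that of PAPS1 to PAPS4 by 0.01 (p = 1). All 6 adjusted values were 1, and in all 6 pairs the groups overlapped. With 3 libraries per genotype and a smallest possible p of 0.1, this test could not pass 0.05 for a shift of any size. That holds for shifts within the spread between libraries and for shifts beyond it. The test therefore cannot decide whether the balance of paralogs differed between the genotypes.

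**Figure D4:**
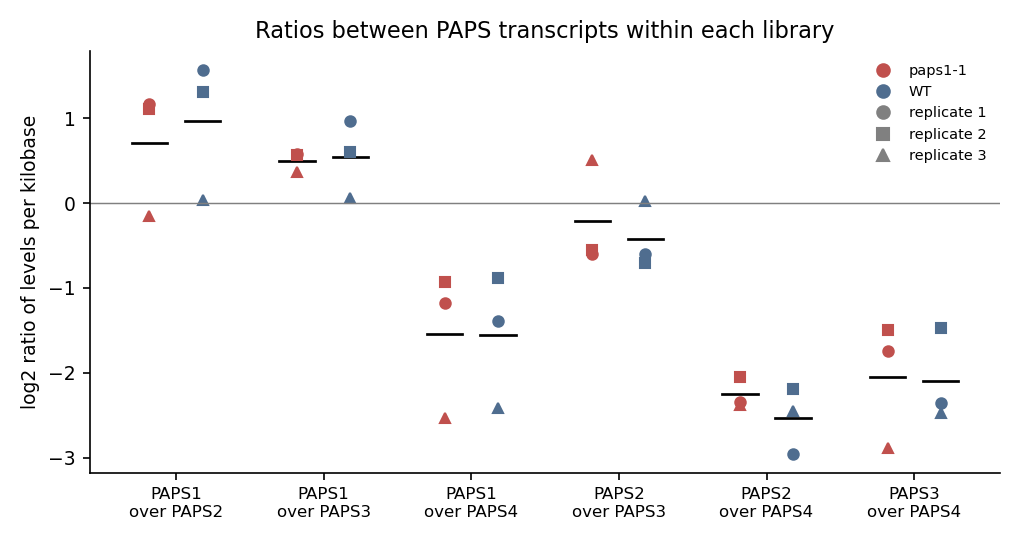
Log2 ratio of the levels per kilobase of each pair of PAPS transcripts (vertical axis) within each library, with paps1-1 left of WT; points are libraries and bars are means. In the pair PAPS1 over PAPS2 the libraries numbered 3 lie at -0.15 and 0.03, and the other 4 between 1.11 and 1.57.

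How closely other genes followed each member over the 6 libraries was measured by Pearson's r of log2 CPM, among the 12145 tested genes whose log2 CPM averaged 2 or more. With 6 libraries such values are a description. PAPS4 was followed most closely by PRK2A, a pollen receptor kinase gene (r = 0.994), by AT3G17980, annotated as a calcium-dependent lipid-binding protein (0.991), and by SFH12, a SEC14-like gene (0.990). PRK2A stood at 597, 546 and 994 CPM in paps1-1, against 1062, 550 and 1871 CPM in WT, in replicate order. PAPS2 was followed by HAF01, a histone acetyltransferase gene of the TAF1 kind (0.996), and TPR15, which encodes a DnaJ protein with tetratricopeptide repeats (0.991). The levels of HAF01 were 79.8, 94.9 and 116 CPM in paps1-1, against 94.3, 82.5 and 157 CPM in WT. PAPS3 was followed by CK1, a casein kinase gene (0.993), AT1G80910, a gene of the vacuolar fusion protein CCZ1 kind (0.993), and AT4G28260 (0.992). PAPS1 was followed by AT2G40765 (0.992), the zinc finger gene AT3G20280 (0.984) and AT1G70570, annotated as an anthranilate phosphoribosyltransferase (0.983).

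The members did not all follow one another. The r of PAPS2 with PAPS4 was 0.885 over the 6 libraries and that of PAPS1 with PAPS3 was 0.698, while PAPS1 had an r of 0.101 with PAPS4 and -0.165 with PAPS2. The number of genes with an r above 0.9 was 40 for PAPS1, 199 for PAPS2, 283 for PAPS4 and 375 for PAPS3. All members share the same 6 libraries and their scaling.

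The other genes of 3' end processing were taken from a list of 35, of which 34 were tested. edgeR called 0 of them, against 2.34% of all tested genes, with 1 at an unadjusted p under 0.05, against 10.3% of all tested genes, and DESeq2 and limma-voom called 0. Their log2 fold changes were positive for 16 and negative for 18, with a median of -0.01, where the median over all tested genes was 0.03. The 4 PAPS genes, at -0.33 to -0.60, were thus lower than the middle of the list, but inside its range of -0.68 to 0.44.

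The cleavage and polyadenylation specificity factor, which binds the poly(A) signal and holds the polymerase, had 8 genes tested, with a median of -0.07. FIPS5, whose yeast counterpart Fip1 contacts the polymerase, had a log2 fold change of -0.42 (SE 0.28), CPSF100 one of 0.29 (SE 0.24) and FIPS3, also a Fip1 type gene, one of 0.29 (SE 0.28). In the group of the cleavage stimulation factor and symplekin, 5 of 6 values were positive, with a median of 0.14. CSTF77, a scaffold subunit, stood at 7.78 ± 1.22 CPM in paps1-1 and 5.73 ± 1.13 CPM in WT (SD, n = 3; log2 fold change 0.42, edgeR adjusted p = 0.701), and ESP4 and CSTF50 had log2 fold changes of 0.22 and 0.18.

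Cleavage factors I and II had 9 tested genes with a median of -0.19. The gene with the smallest p of the pathway was CFIS4 (AT5G55670, annotated as an RNA-binding protein), at 19.0 ± 3.40 CPM in paps1-1 and 30.5 ± 9.84 CPM in WT (log2 fold change -0.68, SE 0.28, edgeR adjusted p = 0.361). CFIS2, a gene of the small subunit of cleavage factor I, had a log2 fold change of -0.48 and CLPS3 one of -0.29. The nuclear poly(A)-binding proteins, which set tail length together with the polymerase, had 3 positive values: 0.18 for PABN1, 0.17 for PABN3 and 0.01 for PABN2. All 4 regulators of poly(A) site choice were negative, with a median of -0.27, among them HLP1 (-0.39), FPA (-0.31) and FCA (-0.24), and none passed the test. The remaining regulator was nearly equal in the genotypes, at 4.64 CPM in paps1-1 and 4.62 CPM in WT (log2 fold change -0.008). Of 4 other nucleotidyl transferases, HESO1 and URT1, which add uridines to RNA, stood at 0.44 (SE 0.42) for HESO1 and -0.29 (SE 0.28) for URT1 on the same log2 scale, and MEE44 at -0.24.

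**Figure D5:**
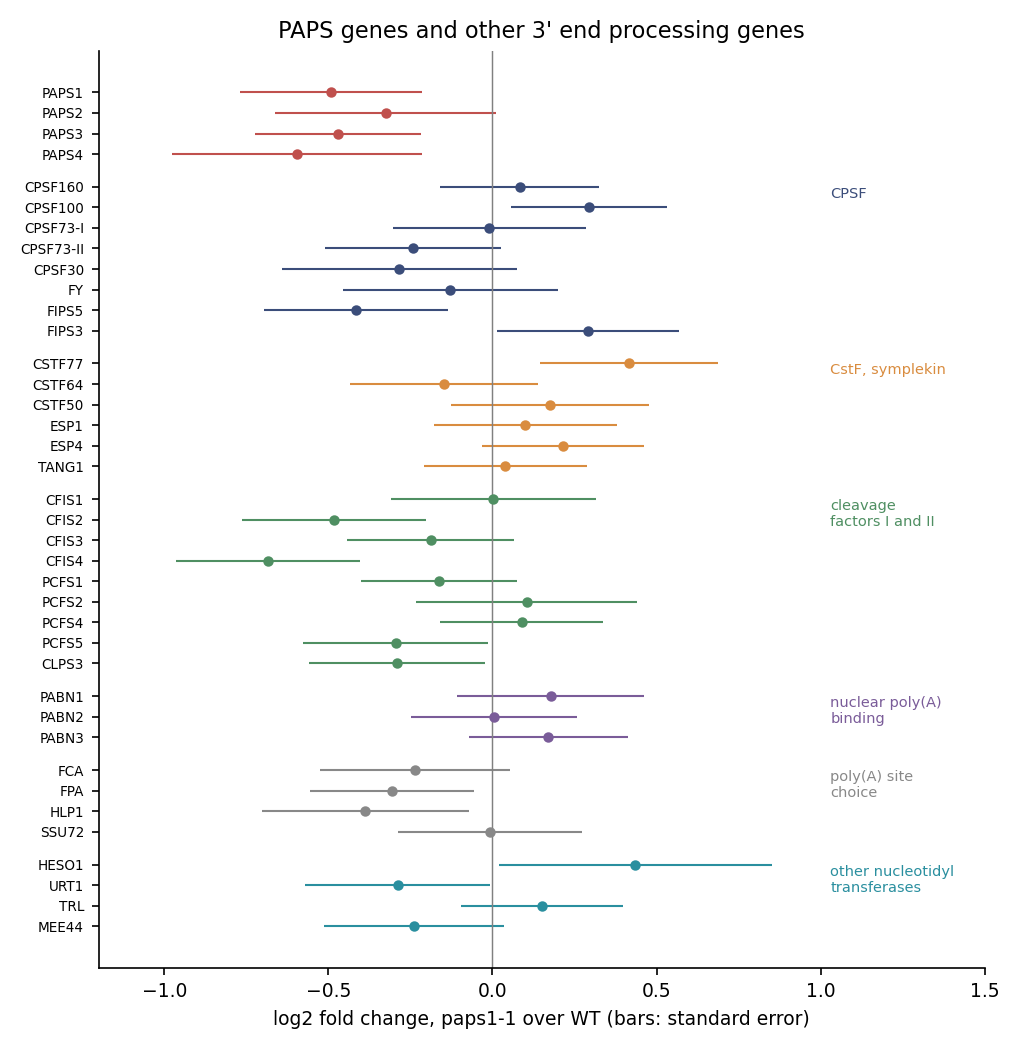
Log2 fold change, paps1-1 over WT, with its standard error (horizontal axis) for the 4 PAPS genes and 34 other genes of 3' end processing, grouped by complex; 0 means equal levels. The PAPS genes lie between -0.60 and -0.33, the other genes between -0.68 and 0.44, and none of them was called.

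Because paps1-1 marks a place in the genome, the 5 tested genes on either side of each PAPS gene in locus order were examined. edgeR called 0 of these 40 genes, against 2.34% of all tested genes. DESeq2 and limma-voom also called 0, and 3 had an unadjusted p under 0.05, against 10.3% of all tested genes. Around PAPS1, log2 fold changes ran from -1.13 to 1.53 with a median of 0.24, and 2 of the 10 genes had an unadjusted p under 0.05. HDG12, a homeodomain gene 4 tested genes away from PAPS1, stood at 3.03 ± 1.02 CPM in paps1-1 and 1.07 ± 0.496 CPM in WT (log2 fold change 1.53, SE 0.44, edgeR adjusted p = 0.0971). Around PAPS2 the range was -0.76 to 0.47, with the smallest p at ATCTH, a zinc finger gene (-0.76, SE 0.29). Around PAPS3 it was -0.52 to 0.43, with the smallest p at AT3G06620 (-0.52, SE 0.32). Around PAPS4 it was -0.71 to 0.49, with the smallest p at AUR1, an Aurora kinase gene (-0.46, SE 0.24).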

How the data were processed

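RNA was extracted from style portions holding pollen tubes with a PicoPure kit and sequenced on an Illumina HiSeq2000, per the labels' protocols; STAR and TAIR10 are named in the submitters' processing notes, with no version; the annotation and the mapping settings are not stated in any source used here. The deposited values are raw counts of reads per gene, in files laid out as STAR writes them; the unstranded column was used, since strand totals differed by a ratio of 1.02 to 1.07. Rows naming no gene stayed out. In paps1-1 replicate 2 multi-mapping reads were 74.6% of all reads, unmapped reads 1.32% and reads outside genes 9.93%, against 7.28% to 28.0%, 2.97% to 4.36% and 2.71% to 4.95% in the other libraries. The labels call only the WT samples biological replicates, so p-values may reflect technical spread among samples only.

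Genes were kept by filterByExpr (edgeR 4.0.16, minimum count 10), which left 18317, scaled by TMM, and tested over the whole table with the quasi-likelihood test (two-sided, adjusted p under 0.05, R 4.3.3); 95% intervals use its standard error and degrees of freedom. Shares, sums and ratios were compared with exact permutation tests (scipy 1.17.1). Lengths, coding sequences, gene overlaps and names came from RefSeq's annotation of TAIR10.1, which matched 32835 of 33323 identifiers. The transcript with the longest coding part was used. Overlaps and sequences rest on the coordinates of that build, whose name differs from the TAIR10 named for the counts. No genome coordinates are printed. Proteins were aligned with Biopython 1.88 (BLOSUM62, free end gaps), and identity is over aligned residues.

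Genes named beside the members were the 3 closest in pattern, up to 3 per list with the smallest p, and the neighbour with the smallest p; 1 gene that this rule names is not reported here. Members and lists were chosen with earlier results of these data known. Alternatives were RLE, upper-quartile and no factors, DESeq2 1.42.0, limma-voom (limma 3.58.1), dropping the low-count filter or raising it to 5 CPM in 3 libraries, counting reads of the fuller strand only, omitting single libraries, a replicate block, levels per kilobase, shares among the nuclear members alone, and, added after seeing the data, leaving out both libraries numbered 3 and sign-flip tests over same-numbered libraries.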

Additional observations from a re-analysis of the deposited data

How the results depend on the processing

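PAPS1, PAPS3 and PAPS4 kept a negative log2 fold change under all 16 alternatives tried, and PAPS2 under 15, and no member was called in any of them; edgeR, DESeq2 and limma-voom adjusted p ranged from 0.237 to 0.978. Leaving out each library in turn gave -0.67 to -0.31 for PAPS1, -0.58 to 0.16 for PAPS2, -0.61 to -0.31 for PAPS3 and -0.93 to -0.22 for PAPS4; the 0.16 of PAPS2 came without WT replicate 3. Without scaling factors the median of all genes was 0.20, against 0.03 with them, and the members stood at -0.31, -0.05, -0.25 and -0.31.

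With each library left out, the share difference ranged from -4.56 to 3.91 percentage points for PAPS1, 0.452 to 3.21 for PAPS2, -0.838 to 1.88 for PAPS3 and -7.06 to 1.91 for PAPS4, and the log2 difference of the summed level from -0.779 to -0.198. The differences of the log2 ratios ranged from -0.73 to 0.17 for PAPS1 over PAPS2, -0.28 to 0.17 for PAPS1 over PAPS3, -0.41 to 0.51 for PAPS1 over PAPS4, -0.14 to 0.44 for PAPS2 over PAPS3, 0.06 to 0.44 for PAPS2 over PAPS4 and -0.22 to 0.48 for PAPS3 over PAPS4. The sign turned with at least 1 library left out for each of these except the PAPS2 share, the summed level and the ratio of PAPS2 to PAPS4. No exact test here could pass 0.05.

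The count of called genes was 429; it was 1042 with no low-count filter and 216 with the stricter filter, where fewer genes were tested, and 333 to 456 with each library left out. The list of other 3' end processing genes had 0 called in each alternative.

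The replicate number was tried as a block. Same-numbered libraries did not deviate together over all genes (r of -0.26, 0.13 and -0.15), so the numbers were not taken to pair them. With the replicate block 482 genes were called, and the log2 fold changes were -0.51, -0.25, -0.46 and -0.52 for PAPS1 to PAPS4, none called. Exact sign-flip permutation tests over same-numbered libraries gave p from 0.25, the smallest 3 pairs allow, to 1 for the shares, sum and ratios. Without both libraries numbered 3, a choice made after seeing the data, the members stood at -0.38, -0.07, -0.15 and -0.52, none called. Depth limits paps1-1 replicate 2 most, where PAPS3 rested on 209 reads.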
